A study of Mus musculus with 10 samples.

Results

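Intraflagellar transport (IFT) and the ciliary transition zone were examined through 37 genes, taken as a fixed list of symbols for IFT subunits, kinesin-2 motors, transition zone proteins and their partners. All 37 were among the 24736 symbols of the mRNA table, and all 37 passed the filter on low counts that left 18988 genes for testing. The mice were females of the outbred Kunming stock, 4 weeks old by the labels, and RNA was taken from the whole eyeball, with day 14 in every sample title. Natural light was the condition of 2 mRNA libraries (natural light A and B), and a blue lamp of 18 W, inside a container kept dark, that of 3 (blue light A, B and C). Housing temperature, chow and water were the same for all. The labels name no separate animals behind the libraries of a group, so the tests rest on the spread between libraries alone, which may be technical.

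A photoreceptor builds its outer segment, the stack of discs that catches light, on a modified primary cilium. Everything the outer segment is made of passes the connecting cilium, which corresponds to a long transition zone. IFT trains move along its microtubules: IFT-B with kinesin-2 outward, IFT-A with the dynein-2 motor back towards the cell body. Loss of many of these genes causes retinal degeneration, alone or with kidney and skeletal disease. Nearly every cell type of the eye can carry a primary cilium, so a level in a whole eyeball averages photoreceptor and other cilia.

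Of the 37 genes 6 were lower and 1 higher in the blue light group than in natural light, at an adjusted p under 0.05 (edgeR's quasi-likelihood F-test, p-values adjusted by Benjamini and Hochberg's method over all tested genes). Among all tested genes 1.55% were lower and 0.664% higher by the same rule (2.22% in either direction), against 16.2% and 2.70% of the 37. With library totals as scaling, 2 were lower and 1 higher. At an unadjusted p under 0.05, 16 were lower and 1 higher, against 9.27% and 7.03% of all tested genes. The transition zone genes Rpgrip1 and Cep290, the ciliary GTPases Arl13b and Arl3, the ciliary protein gene Lca5 and the motor gene Kif3b fell, and the IFT-B gene Ift57 rose. The other 30 did not pass. Log2 fold changes (log2FC) are blue minus natural light; 31 of the 37 were negative (28 with library totals), with a median of -0.21 against -0.0056 over all tested genes, of which 51.0% were negative. In 20 of the 37 (54.1%) all blue libraries lay below both natural light libraries, against 20.1% of all tested genes, and in 1 (2.70%) above, against 15.6%. In bulk tissue, fewer cells of a type and less RNA per cell cannot be told apart. Nor can the blue lamp and the container kept dark, which went together in the blue light group.

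**Figure D1:**
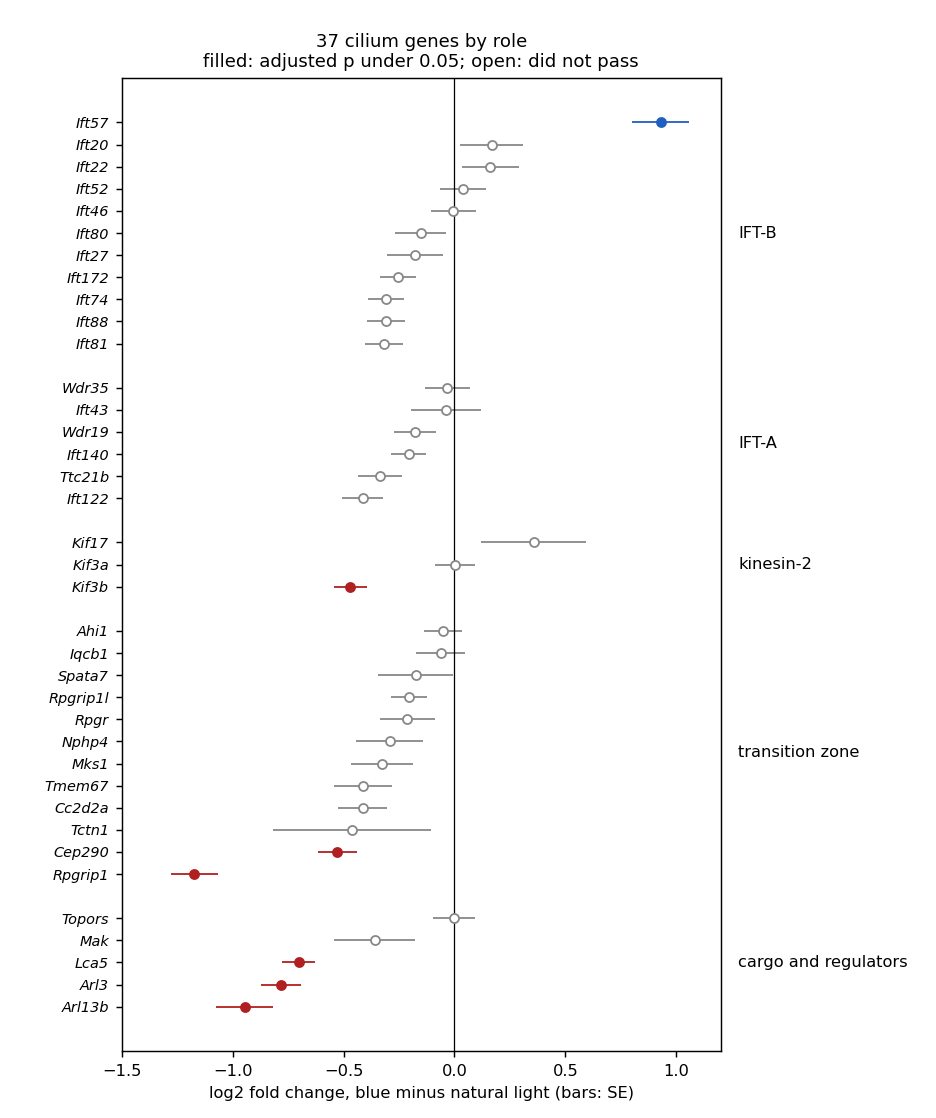
Log2 fold change (blue minus natural light, horizontal axis) of the 37 genes, grouped by role, with bars for the standard error of edgeR's test; filled points passed an adjusted p of 0.05. The 6 filled points left of 0 run from -1.17 (Rpgrip1) to -0.47 (Kif3b), and the filled point right of 0 is Ift57 at 0.93.

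Library totals ran from 87071487 to 107660103 estimated counts, and the ribosomal precursor gene Rn45s took between 4.30% and 14.4% of a library. The listed marker genes of rods were well measured, with a summed level of 31535 to 33687 CPM (counts scaled by library size and TMM factor) in natural light and 6906.7 to 12069 CPM in blue light, and 18 of 21 fell. Reactive glia genes summed to 442 to 492 CPM in natural light and 1631 to 1804 CPM in blue light, and 12 of 12 rose. The summed levels of lens genes (38516 to 39633 against 39002 to 41599 CPM), muscle genes (756 to 1675 against 806 to 1606 CPM), cone genes (448 to 578 against 533 to 694 CPM) and bipolar cell genes (1599 to 1640 against 1547 to 1809 CPM) overlapped between the groups. Among 10 cone genes Arr3 fell (-0.90) and Gnb3 rose (1.65), and among 10 bipolar cell genes 1 fell and 0 rose. Gnb3 enters the cone sum with 98.8 and 85.6 CPM in natural light and 242, 323 and 306 CPM in blue light. The log2 fold change was negative for 6 of the 10 cone genes and positive for 4, with a median of -0.17, so the cone sum does not show the direction of most of them. Adipocyte genes summed to 42.8 to 50.3 CPM in natural light and 51.2 to 67.3 CPM in blue light, without overlap, and 1 of 10 rose. Most of that sum came from Plin4 (22.2 and 26.9 against 31.0, 28.6 and 28.6 CPM) and Lipe (16.4 and 16.5 against 18.6, 17.1 and 18.7 CPM). The gene that rose, Cfd, was low, at 0.29 and 0.32 against 2.01, 1.14 and 2.22 CPM. Limma-voom did not call Cfd (adjusted p = 0.118). Lep, Cidec and Pck1 were at 0 in at least 1 library. Of the rod, cone, lens and muscle markers none was at 0 in any library. The part of the rod, glial, cone and adipocyte shifts in the values below was not tested.

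The transition zone is the gate between the cell body and the cilium, and all 12 of its listed genes had a negative log2FC under each of the scalings tried, with a median of -0.31. Rpgrip1, which anchors the GTPase regulator Rpgr in the connecting cilium of photoreceptors, stood at 592 and 649 CPM in natural light A and B and at 247, 274 and 305 CPM in blue light A, B and C. Every blue library was thus below both natural light libraries, from 620 ± 39.8 (SD, n = 2) to 275 ± 29.2 CPM (SD, n = 3). Rpgrip1 fell by 1.17 on the log2 scale, a 2.26-fold lower level (SE 0.11, edgeR adjusted p = 0.0168). Each SE of a log2FC is back-calculated from edgeR's F statistic, and so restates the test. Rpgrip1 spans chromosome 14 from 52104241 to 52161339 (GRCm38, the assembly called mm10), where Supt16 overlaps it at 52160419; whether counting used strand is not stated, and with the counts of both genes summed the log2FC was -0.92 (edgeR adjusted p = 0.0183). Its call was lost without natural light A, natural light B or blue light C (edgeR adjusted p between 0.0672 and 0.111).

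The RefSeq promoter table (GRCm38.p6) places the start of Rpgrip1 inside that span. The 250 bases before the start are shown because Rpgrip1 had the lowest log2FC of the 37. Capitals mark letters of motifs searched on both strands: TAATCC, the core bound by the photoreceptor factor CRX, found as GGATTA at positions -28 to -23, and TGCTGA, an arm of the site of the rod factor NRL, found as TCAGCA at positions -113 to -108. Position -1 is the last base before the start.
Rpgrip1 (chr14:52110653-52110902, plus strand): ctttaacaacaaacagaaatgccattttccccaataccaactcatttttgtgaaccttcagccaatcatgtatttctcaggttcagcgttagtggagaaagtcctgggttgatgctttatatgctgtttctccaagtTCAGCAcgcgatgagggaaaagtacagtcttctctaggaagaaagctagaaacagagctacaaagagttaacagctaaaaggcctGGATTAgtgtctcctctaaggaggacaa
TAATCC occurred in the 300-base window (250 before to 50 after the start) of 2 of 33 genes on the list that had a window, Rpgrip1 and Mak, and in 8.14% of all 27025 genes of the promoter table. TGCTGA occurred in 6 of 33 and in 21.7% of all. With 42.7% G and C and 3 CpG pairs the Rpgrip1 window was poorer in both than the median of the 39 windows of listed genes (59.7% and 20 pairs), and the median of the windows of tested genes was 59.0% and 17 pairs. These matches describe letters only, and binding was not tested.

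Cep290, a large scaffold that links the microtubules of the transition zone to its membrane, stood at 222 and 199 CPM in natural light A and B and at 136, 154 and 149 CPM in blue light A, B and C. The groups did not overlap, and Cep290 fell by 0.53 on the log2 scale (SE 0.088, edgeR adjusted p = 0.0494), a 1.44-fold lower level. Cep290 lies on chromosome 10 from 100487548 to 100575671. Its call was the weakest of the 7: it was lost with DESeq2's size factors (edgeR adjusted p = 0.0621), with library totals (0.169), without the low-count filter (0.0533) and without any 1 of the 5 libraries (0.0972 to 0.287).

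The other 10 transition zone genes did not pass. Cc2d2a and Tmem67, of the complex that forms the membrane barrier, had log2FC of -0.41 each (edgeR adjusted p = 0.150 and 0.205), and their blue libraries lay below both natural light libraries. Counts of Tmem67 summed with those of Rbm12b2, which overlaps it, gave -0.21. Mks1, another member of that complex, was at -0.33, Nphp4 at -0.29, Rpgr at -0.21, Rpgrip1l at -0.21 and Spata7, a partner of Rpgrip1 in the connecting cilium, at -0.18. For Nphp4 the value was -0.15 when summed with the overlapping Kcnab2. Iqcb1 (-0.063) and Ahi1 (-0.053) were nearest to 0 and were positive without natural light A (0.080 and 0.076).

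Tctn1, a secreted or membrane protein of the same barrier complex, was set apart by 1 library. It stood at 25.3 and 28.8 CPM in natural light A and B, at 24.5 and 23.8 CPM in blue light A and B, and at 10.5 CPM in blue light C. Only blue light C was far below the rest, and the log2FC of -0.46 (SE 0.36, edgeR adjusted p = 0.594) was -0.16 without it. Hvcn1, which overlaps the end of Tctn1, was at 3.42 to 3.52 CPM in natural light and 3.51 to 4.45 CPM in blue light.

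**Figure D2:**
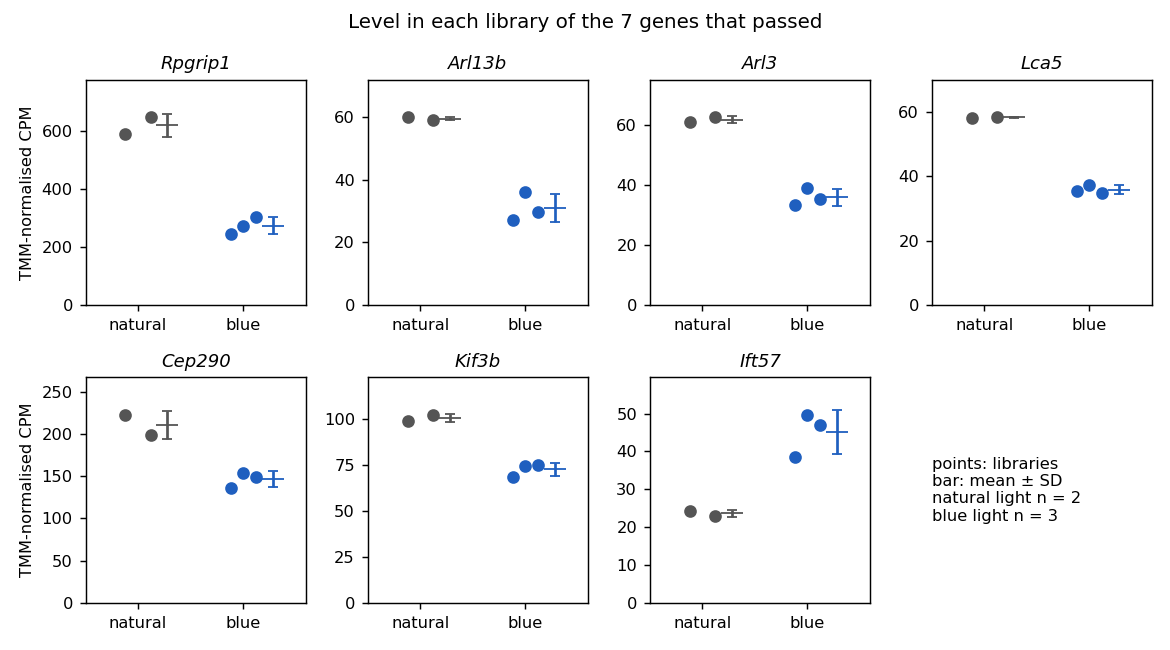
TMM-normalised CPM (vertical axes from 0) of the 7 genes that passed, as points per library with mean ± SD beside them, for 2 natural light and 3 blue light libraries. In no panel do the groups overlap; Ift57 is the gene whose blue libraries, 38.5 to 49.6 CPM, lie above natural light, 23.0 to 24.3 CPM.

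Arl13b and Arl3 are small GTPases that act in sequence: Arl13b, held on the ciliary membrane, activates Arl3, and Arl3 releases lipid-anchored cargo such as transducin and phosphodiesterase subunits from their carriers inside the cilium. Arl13b stood at 59.9 and 59.1 CPM in natural light A and B and at 27.2, 36.0 and 29.6 CPM in blue light A, B and C. All 3 blue libraries were low, and Arl13b fell by 0.94 on the log2 scale (SE 0.13, edgeR adjusted p = 0.0293), a 1.92-fold lower level. Arl13b spans chromosome 16 from 62793308 to 62847055, and with Stx19, which lies within it, summed in, the log2FC was -0.93. The call was lost with library totals (edgeR adjusted p = 0.0533) and without natural light A, natural light B or blue light C (0.124 to 0.203).

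Arl3, on chromosome 19 from 46531109 to 46573182, stood at 61.1 and 62.6 CPM in natural light A and B and at 33.5, 39.1 and 35.3 CPM in blue light A, B and C. It fell by 0.78 (SE 0.090, edgeR adjusted p = 0.0217), a 1.72-fold lower level, with no overlap between groups. Its call was lost without natural light A, natural light B or blue light C (edgeR adjusted p between 0.109 and 0.161). Of the carriers that Arl3 unloads, Unc119, which carries the transducin alpha subunit, fell by 1.27 (SE 0.16, edgeR adjusted p = 0.0249), from 363 and 356 CPM in natural light to 121, 179 and 149 CPM in blue light. Pde6d, the carrier of prenylated cargo, had a log2FC of -0.54 (edgeR adjusted p = 0.0670), and its blue libraries (25.5, 28.8 and 28.9 CPM) were below both natural light libraries (43.1 and 37.7 CPM). Rp2, which switches Arl3 off, was at 18.5 and 20.2 CPM in natural light and at 22.9, 23.3 and 21.9 CPM in blue light (log2FC 0.23, edgeR adjusted p = 0.301). Arl2bp, a binding partner of Arl3, was at -0.0071 and Unc119b, the second Unc119 paralog, at -0.026.

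Arl3 shares its promoter region with Sfxn2, a mitochondrial carrier gene that starts 183 bases upstream on the opposite strand. Sfxn2 also fell, by 0.94 (SE 0.16, edgeR adjusted p = 0.0479), from 19.0 and 15.0 CPM in natural light to 7.79, 9.66 and 9.03 CPM in blue light. That call lay close to the threshold, and whether it holds under other scalings or with a library left out was not examined. The 250 bases before the Arl3 start, which hold the region between both starts, are shown because both genes passed, and contain none of the motifs searched.
Arl3 (chr19:46573183-46573432, minus strand): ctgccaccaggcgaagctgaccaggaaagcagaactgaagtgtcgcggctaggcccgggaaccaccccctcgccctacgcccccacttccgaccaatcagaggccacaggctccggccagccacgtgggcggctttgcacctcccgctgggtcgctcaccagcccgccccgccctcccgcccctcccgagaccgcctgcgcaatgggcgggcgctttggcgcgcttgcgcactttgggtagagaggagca
In all, 9 listed genes had a start on the opposite strand within 1000 bases upstream, or up to 50 bases past their own start. Of those 9 neighbours 7 were tested, with log2FC from -0.94 to -0.044 and a median of -0.14, and only Sfxn2 passed. Among all tested genes 2.22% passed in either direction. The neighbour of Cep290, Tmtc3, had a log2FC of -0.25 (edgeR adjusted p = 0.180).

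Lca5 encodes lebercilin, which binds IFT trains in the connecting cilium. It stood at 58.2 and 58.3 CPM in natural light A and B and at 35.3, 37.4 and 34.7 CPM in blue light A, B and C. The libraries of each group were close together, and Lca5 fell by 0.70 (SE 0.073, edgeR adjusted p = 0.0183), a 1.63-fold lower level. Lca5 is on chromosome 9 from 83391355 to 83442994. The call was lost with library totals (edgeR adjusted p = 0.0503) and without natural light A, natural light B or blue light C (0.0953 to 0.152). Mak, a kinase that limits cilium length in photoreceptors, ranged more widely, from 125 to 160 CPM in natural light and from 95.6 to 136 CPM in blue light, with overlapping groups (log2FC -0.36, edgeR adjusted p = 0.406). Topors, a ubiquitin and SUMO ligase found at the basal body, had a log2FC of -0.0022.

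Kinesin-2 is the outward motor, and its main form pairs the motor chains Kif3a and Kif3b. Kif3b stood at 99.2 and 102 CPM in natural light A and B and at 68.6, 74.5 and 75.4 CPM in blue light A, B and C, without overlap. It fell by 0.47 (SE 0.076, edgeR adjusted p = 0.0459), a 1.38-fold lower level, on chromosome 2 from 153291395 to 153333390. This call was lost with DESeq2's size factors (edgeR adjusted p = 0.0563), with library totals (0.137) and without any 1 of the 5 libraries (0.0835 to 0.237).

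Kif3a stood at 91.4 and 89.8 CPM in natural light A and B and at 84.8, 99.2 and 88.4 CPM in blue light A, B and C, so the groups overlapped (log2FC 0.0035). The log2 ratio of Kif3b to Kif3a within a library does not depend on scaling, and gene length cancels in its change between libraries. It was 0.47 lower in blue light (SE of the difference 0.064). Kif17, the other kinesin-2 motor, was at 3.90 and 2.63 CPM in natural light A and B and at 3.90, 3.89 and 4.77 CPM in blue light A, B and C. These overlapping values gave a log2FC of 0.36 (edgeR adjusted p = 0.531), which ranged from 0.10 without natural light B to 0.69 without natural light A. Kifap3, the adaptor of the motor, and Kif3c, another partner chain, had log2FC of -0.087 and -0.064.

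IFT-B, the complex of outward trains, held the gene that rose. Ift57, also called Hippi, stood at 24.3 and 23.0 CPM in natural light A and B and at 38.5, 49.6 and 47.0 CPM in blue light A, B and C. All 3 blue libraries were above both natural light libraries, and Ift57 rose by 0.93 (SE 0.13, edgeR adjusted p = 0.0307), a 1.90-fold higher level. It lies on chromosome 16 from 49699294 to 49765126. The call was lost without natural light A, natural light B, blue light B or blue light C (edgeR adjusted p between 0.0615 and 0.196).

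The other 10 IFT-B genes did not pass. Their mean log2 CPM moved by between -0.32 and 0.18, with a median of -0.17. Ift81 (-0.32) and Ift74 (-0.31), the partners that bind tubulin, and Ift88 (-0.31), whose loss disturbs outer segment assembly, were the lowest. Ift74 was at 26.4 and 25.1 CPM in natural light A and B and at 21.0, 20.9 and 20.4 CPM in blue light A, B and C, without overlap (SE 0.083, edgeR adjusted p = 0.150). Ift172 (-0.25), Ift27 (-0.18) and Ift80 (-0.15) followed, while Ift46 (-0.0053, positive with DESeq2's size factors or library totals), Ift52 (0.040), Ift22 (0.16) and Ift20 (0.17) lay near or above 0.

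The log2 ratio of Ift57 to the mean of those 10 genes was 1.04 higher in blue light (SE of the difference 0.12), and it was 0.85, 1.15 and 1.11 above the natural light mean in blue light A, B and C. The ratio of Rpgrip1 to its paralog Rpgrip1l was 0.97 lower (SE 0.12), falling from 14.9 and 17.3 in natural light A and B to 7.74, 8.13 and 8.68 in blue light A, B and C; both genes keep their own length, so only the change between libraries can be read. The ratio of Rpgrip1 to Rpgr was also 0.97 lower (SE 0.23). In each of these 4 ratios the groups did not overlap. An exact 2-sided permutation test of 2 against 3 libraries gave p = 0.1 for each, also after adjustment over the 4. That is the smallest p that this design allows, so no ratio could have reached the threshold used for genes. The numerators Kif3b, Rpgrip1 and Ift57 had also already passed in edgeR on the same libraries. The permutation test therefore cannot decide whether these ratios changed, and no conclusion is drawn from it. The pairs with Rpgr and with the IFT-B mean were chosen after their values were seen.

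**Figure D3:**
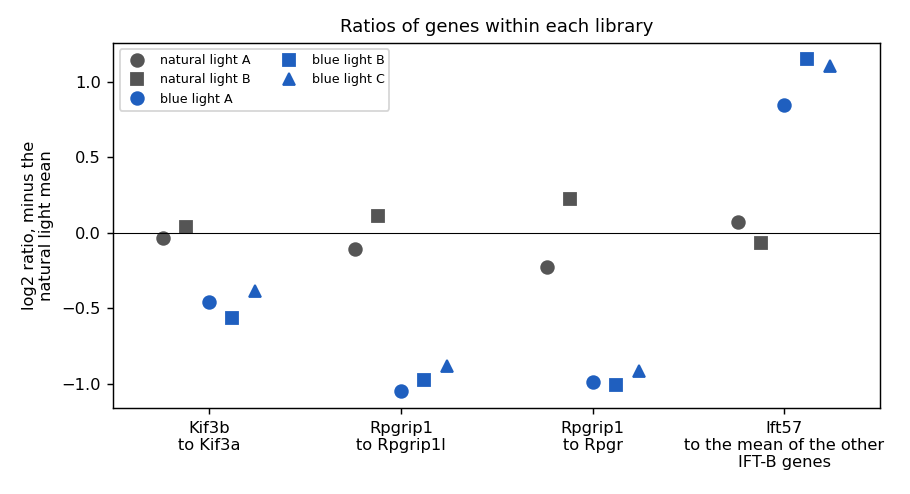
Log2 ratio of gene levels within each library, minus the mean of natural light A and B (vertical axis), for 4 ratios; grey points are natural light and blue points blue light libraries. Blue libraries lie below natural light for Kif3b to Kif3a (-0.57 to -0.38) and for Rpgrip1 to Rpgrip1l (-1.05 to -0.88), and above it for Ift57 to the other IFT-B genes (0.85 to 1.15).

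The promoter window of Ift57 held GTTGCC, an arm of the X-box bound by RFX factors, which are regulators of ciliary genes, at positions -87 to -82 and -60 to -55. From -60 to -48 the sequence read as a whole X-box with a spacer of 1 base (GTTNCC and GGNAAC with 1 base between them), a form searched after the sequence was seen and held by 0.311% of all genes of the promoter table. A spacer of 3 bases was also searched only then, and was held by 0 of 33 listed genes and 0.0703% of all genes. The 250 bases before the Ift57 start are shown because Ift57 was the gene that rose, with the GTTGCC and X-box letters in capitals.
Ift57 (chr16:49699044-49699293, plus strand): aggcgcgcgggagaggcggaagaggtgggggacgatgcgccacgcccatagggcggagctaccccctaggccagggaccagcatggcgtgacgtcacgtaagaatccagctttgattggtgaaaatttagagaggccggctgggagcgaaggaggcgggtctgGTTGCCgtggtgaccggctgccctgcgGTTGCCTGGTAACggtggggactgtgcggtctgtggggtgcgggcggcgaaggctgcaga
GTTGCC was present in the windows of 14 of the 33 listed genes with a window (42.4%), against 14.1% of all 27025 genes. Besides Ift57 it was present in Arl13b and Lca5 among the genes that passed, and absent from the windows of Rpgrip1, Arl3, Cep290 and Kif3b. The whole X-box with a spacer of 2 bases (GTTNCC and GGNAAC with 2 bases between them, overlapping GTTGCC where an N makes it so) was present in 3 of 33, Ahi1, Mks1 and Tctn1, none of which passed, against 0.529% of all genes. These 3 matches are shown with the X-box in capitals, to set beside the Ift57 sequence.
Ahi1 (chr10:20952560-20952589, plus strand): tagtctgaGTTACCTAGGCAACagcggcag
Mks1 (chr11:87853183-87853212, plus strand): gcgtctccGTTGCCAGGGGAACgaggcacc
Tctn1 (chr5:122264411-122264432, minus strand): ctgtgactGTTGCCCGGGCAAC
Tmem67, Ift80, Ift81 and Ift122 were not matched in the table.

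IFT-A carries trains back to the cell body and admits membrane receptors into the cilium. All 6 of its genes had a negative log2FC, with a median of -0.19, although Wdr35 (-0.032) was positive with library totals. In edgeR 0 of the 6 passed, with 3 lower at an unadjusted p under 0.05, 1 lower call in DESeq2 and 0 in limma-voom. Of all tested genes 9.27% were lower at that unadjusted p, 4.65% in DESeq2 and 1.72% in limma-voom. Ift122 was at 46.2 and 50.1 CPM in natural light A and B and at 33.3, 38.3 and 36.8 CPM in blue light A, B and C. Its groups did not overlap (log2FC -0.41, SE 0.093, edgeR adjusted p = 0.102), and DESeq2 called it (adjusted p = 0.00830). Ttc21b was at 33.0 and 33.7 CPM in natural light A and B and at 24.3, 28.9 and 26.0 CPM in blue light A, B and C, also without overlap (log2FC -0.34, SE 0.10, edgeR adjusted p = 0.183). Ift140 (-0.21), Wdr19 (-0.18) and Ift43 (-0.039) completed the complex.

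Of 53 other cilium genes on a fixed list, 4 fell, 7.55% against 1.55% of all tested genes. In edgeR 0 rose, with 2 at an unadjusted p under 0.05 and a positive log2FC (Rp2 and Tulp3), 1 call in DESeq2 and 0 in limma-voom. Of all tested genes 7.03% were higher at that unadjusted p, 4.46% in DESeq2 and 0.69% in limma-voom. Fam161a, a microtubule protein of the connecting cilium, fell by 1.49 (SE 0.13, edgeR adjusted p = 0.0147), from 169 and 150 CPM in natural light to 48.6, 63.0 and 59.0 CPM in blue light. Unc119 is described above. Tulp1, a photoreceptor protein needed for traffic to the outer segment, fell by 1.06 (SE 0.13, edgeR adjusted p = 0.0249), from 384 and 341 CPM to 146, 184 and 191 CPM. Cep164, of the distal appendages of the basal body, fell by 0.89 (SE 0.089, edgeR adjusted p = 0.0183), from 165 and 148 CPM to 78.9, 90.1 and 84.9 CPM.

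Tulp3, which brings receptors into cilia with IFT-A and is a relative of Tulp1, was at 27.8 and 26.7 CPM in natural light and at 50.7, 39.3 and 49.5 CPM in blue light, without overlap (log2FC 0.77, SE 0.13, edgeR adjusted p = 0.0523). DESeq2 called it higher (adjusted p = 7.32e-06). None of the remaining subunits of IFT-B (7 genes), the motors (8 genes) or the transition zone (16 genes) passed in edgeR, with 2, 1 and 3 of them at an unadjusted p under 0.05 and a negative log2FC, 1 call each in DESeq2 and 0 in limma-voom. Their medians were -0.24, -0.22 and -0.23. Of all tested genes 9.27% were lower at an unadjusted p under 0.05, 4.65% in DESeq2 and 1.72% in limma-voom. Ttc30a1 and Ttc30a2 are near-identical copies, so the split of counts between them is uncertain. The median over all 53 was -0.24, beside -0.21 over the 37.

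**Figure D4:**
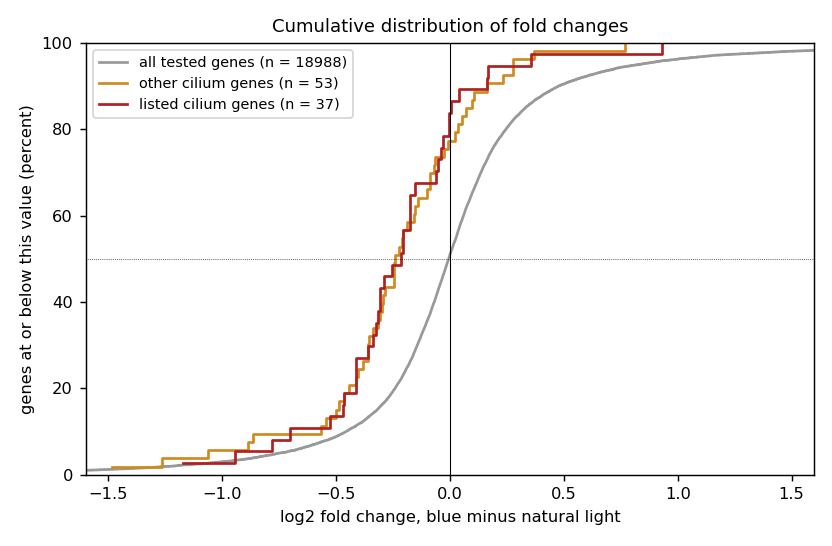
Cumulative share of genes (vertical axis, percent) at or below a log2 fold change (horizontal axis, blue minus natural light) for all 18988 tested genes, 53 other cilium genes and the 37 listed genes; the axis ends at -1.6 and 1.6. The lines of both cilium lists cross 50 percent near -0.2 and the line of all genes near 0.

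By library, the level of a list, the mean over its genes of log2 CPM after subtracting each gene's mean over the 5 libraries, separated the groups for some roles only. For the transition zone it was 0.27 and 0.17 in natural light A and B and -0.22, -0.030 and -0.19 in blue light A, B and C. For the GTPases and regulators it was 0.35 and 0.33 against -0.33, -0.079 and -0.26. For IFT-A it was 0.13 and 0.12 against -0.18, 0.017 and -0.075, and for IFT-B -0.010 and 0.036 against -0.055, 0.035 and -0.0053, where the groups overlapped. They overlapped for kinesin-2 too, at 0.11 and -0.072 against -0.10, 0.010 and 0.057, with blue light C the highest blue library. Blue light A was the lowest and blue light B the highest of the blue libraries in the transition zone, regulator, IFT-A and IFT-B levels. The rod list had the same order, at 1.02 and 0.92 in natural light and -1.01, -0.34 and -0.59 in blue light A, B and C; its part in the cilium levels was not tested. Motile cilium genes, markers of multiciliated cells, had a level of 0.13 and 0.062 in natural light and -0.014, -0.034 and -0.14 in blue light, and in edgeR 0 of 16 passed, with 1 at an unadjusted p under 0.05, 1 call in DESeq2 and 0 in limma-voom. Their summed level was 84.1 to 156 CPM in natural light and 87.5 to 96.4 CPM in blue light. Dnah9 alone stood at 91.2 and 29.7 CPM in natural light A and B and at 33.9, 22.0 and 37.1 CPM in blue light A, B and C. The median motile cilium gene was at 2.01 CPM, so the sum does not stand for most of them. The 1 motile cilium gene at an unadjusted p under 0.05, Spag16, was lower, against 9.27% of all tested genes, and 4.65% of all were lower in DESeq2. Spag16 lay near the floor, at 0.43 and 0.52 CPM in natural light and at 0.15, 0.075 and 0.11 CPM in blue light.

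**Figure D5:**
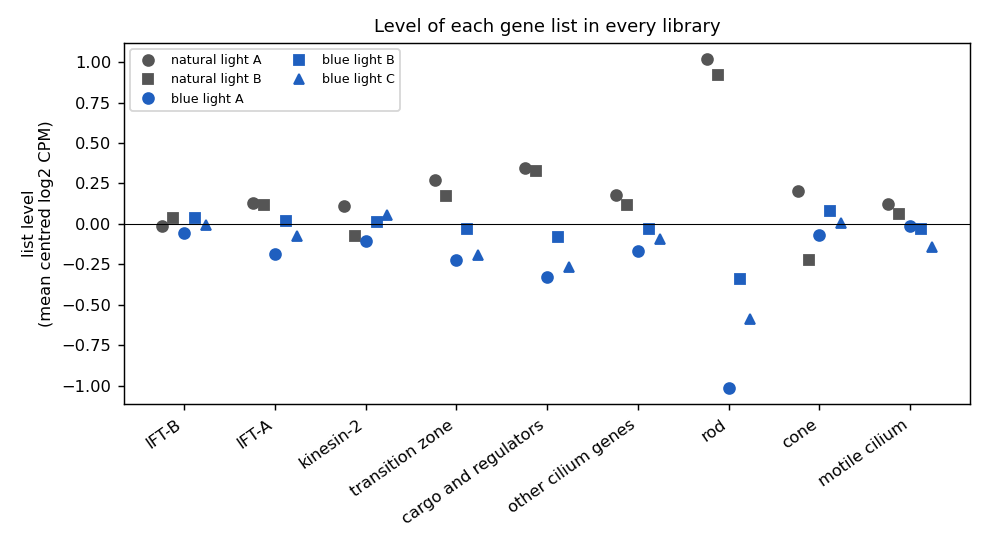
Level of each list (mean centred log2 CPM, vertical axis) in the 5 libraries, for the 5 roles of the 37 genes, the 53 other cilium genes, and rod, cone and motile cilium markers; circles, squares and triangles are libraries A, B and C. Rod markers span -1.01 to 1.02, the regulators -0.33 to 0.35, and IFT-B -0.055 to 0.036.

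Other tests gave more or fewer calls. DESeq2 called 10 of the 37 lower and 1 higher, where it called 4.65% of all tested genes lower and 4.46% higher, adding Ift122, Ift74, Ift88 and Cc2d2a to the 6 that fell. Limma-voom called 6 lower and 1 higher, against 1.72% and 0.690% of all. In edgeR none of the 7 passed without blue light C, where 13 of the 37 had an unadjusted p under 0.05, against 2283 of 18826 tested genes. The calls were likewise lost without natural light A or without natural light B, fits that leave 1 natural light library. All 7 kept their sign in those fits, which share libraries with the main one and are no independent support.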

How the data were processed

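Per the labels' protocols, total RNA of eyeballs was extracted with Trizol, depleted of ribosomal RNA with biotin-labelled probes, and turned into cDNA after fragmentation. In the submitters' processing notes stand mm10, HISAT2, StringTie, limma, DESeq2 and bcl2fastq 2.0, with no role for any of them; annotation and strand setting are not given in the sources used here. Values of the mRNA table were read as estimated counts, deposited without normalisation. They are whole numbers, but the values 4 (1051 times) and 5 (1107 times) are more frequent than 3 (751 times) and 6 (580 times), so 1 fragment may add more than 1 unit and no counting intervals are given. Values were used as deposited, and each of the 5 columns was matched to its sample by title. Totals of 87071487 to 107660103 leave the spread between 2 and 3 libraries as the limit on precision.

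Groups were compared in edgeR 4.0.16 (R 4.3.3): TMM scaling, filterByExpr by group, quasi-likelihood F-test, Benjamini-Hochberg adjustment over 18988 genes, threshold 0.05, no covariate. On simulated counts 41.8% of 2-fold and 75.5% of 4-fold changed genes were recovered over 18692 genes, and 8.00% of calls were unchanged genes. By a fixed rule, values in every library are given for listed genes that passed and the 2 with the smallest p in each role, other listed genes get a log2FC, and other cilium genes that passed, 2 paralog pairs, Unc119, Pde6d and Rp2 are named. Other genes named beyond that rule, and the library values of Tctn1, Tulp3, Sfxn2 and single marker genes, were chosen after their values were seen. Members and lists were chosen with earlier results of these data known. Alternatives were 3 scalings, 2 filters, DESeq2 1.42.0, limma-voom (limma 3.58.1), an absolute log2FC of at least 1, a replicate block, values divided by 4, overlapping genes summed and leaving out each library. Positions, gene overlaps and promoter windows come from RefSeq (GRCm38.p6), where 37 of 37 genes had a position and 33 a promoter window. The miRNA table was not used here. No exon lengths were used, so levels are not compared between genes.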

Additional observations from a re-analysis of the deposited data

How the results depend on the processing

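All 7 genes that passed kept their sign in all 16 alternatives, which reuse the same libraries. With an absolute log2FC of at least 1, 133 genes were lower and 65 higher in all, and of the 37 cilium genes 1 was lower (Rpgrip1) and 0 higher. Scaling by library totals gave 150 lower and 124 higher genes, against 295 and 126, and 2 of the 37 lower (Rpgrip1 and Arl3). DESeq2's test called 883 genes lower and 846 higher, 10 of the 37 lower, and 10 lower and 1 higher of the 53 other cilium genes; that 1 higher call also came with DESeq2's size factors in edgeR, a mean CPM of at least 5, and values divided by 4. The letters A, B and C are shared by title only, and deviations of same-letter libraries correlated at -0.18 (A) and -0.15 (B). With the letter as a replicate block edgeR called 0 genes lower and 0 higher, 0 of the 37 in either direction and 0 of the 53, with 1455 genes, 8 of them among the 37, at an unadjusted p under 0.05; the cause was not tested, and the fit has 1 residual degree of freedom.

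Leaving out 1 library moved the count of lower genes to between 0 and 213 and of higher genes to between 0 and 98, of the 37 to between 0 and 4 lower and 0 and 1 higher, and of the 53 to between 0 and 4 lower and 0 and 1 higher. The median of the 37 lay between -0.26 and -0.15 there. The lowest counts came without natural light B, natural light A or blue light C. Each of the 5 fits lacked 1 library, yet 213 genes were lower without blue light A and 185 without blue light B, against 5 without blue light C. The reason was not tested. Where 1 natural light library was left, it was assumed to vary like the blue ones. Without natural light B edgeR called 0 genes, with 2872 at an unadjusted p under 0.05.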
